A study of Homo sapiens with 6 samples.

Results

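The enzymes that start, extend and cap O-glycans with sialic acid and fucose were examined in MDA-MB-453, an established human breast cancer cell line, cultured for 5 days with 100 nM 25(OH)D (the circulating vitamin D metabolite) or with alcohol as the solvent (control). Members were taken by gene symbol: the GALNT, GCNT, ST3GAL, ST6GAL, ST6GALNAC and FUT families together with C1GALT1 and its chaperone C1GALT1C1. The rule found 49 of the 33451 genes listed in the deposited counts, of which 19 are GALNT genes, 8 belong to core 1 synthesis and branching, 6 are ST3GAL genes, 5 are ST6GAL or ST6GALNAC genes and 11 are FUT genes. Poly(A) RNA was sequenced with a stranded kit in 3 libraries per group, described as biological replicates of 1 cell line. Nothing else distinguished the groups in the labels.

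O-glycans of the mucin type are built in the Golgi apparatus, one sugar at a time. A GALNT enzyme attaches N-acetylgalactosamine to serine or threonine, C1GALT1 adds galactose to form the core 1 structure, and GCNT enzymes add branches. Sialyltransferases and fucosyltransferases then place the terminal sugars, which form antigens such as sialyl-Lewis structures, ligands of selectins that are studied on epithelial tumour cells.

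Library totals lay between 36486009 and 40928176 counts in control and between 33268860 and 38767949 in 25(OH)D. Mitochondrial genes took 7.85% to 7.99% of the counts in control and 8.89% to 9.24% in 25(OH)D, and the part of this difference in the results below was not tested. The 12 luminal and apocrine breast markers, such as KRT8 and ERBB2, were all tested, with summed RPKM between 3918 and 4075 in control and between 3051 and 3165 in 25(OH)D, of which XBP1 was the largest part. The 17 markers of stromal, blood, endothelial and basal cells summed to between 4.07 and 4.45 RPKM in control and between 3.75 and 3.83 in 25(OH)D. COL1A1 made up most of the second sum, since without it the range was 0.380 to 0.456 in control and 0.401 to 0.558 in 25(OH)D. COL3A1 and CDH5 were not listed, and 2 further markers never exceeded 3 counts. In bulk RNA, fewer cells expressing a gene and less RNA per cell cannot be told apart.

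Of the 49 enzymes, 33 passed the low-count filter and 16 did not. Expression of 11 enzymes rose with 25(OH)D and that of 9 fell, at a Benjamini-Hochberg adjusted p under 0.05 in edgeR's quasi-likelihood test over all 18183 genes tested. These 20 made up 60.6% of the 33 tested enzymes, where 33.8% of all genes tested were called, 17.3% as higher and 16.5% as lower. The median log2 fold change of the tested enzymes was 0.082, against -0.011 over all genes tested, and the median size of the change regardless of sign was 0.48 against 0.23. No library of either group lay within the range of the other in 23 of the 33 enzymes, where 45.7% of all genes showed no overlap. With an absolute log2 fold change over 1 required as well, 7 enzymes remained, where 5.99% of all genes did. FUT3 and ST6GALNAC6 were higher, where the background was 3.69%, and ST3GAL4, ST3GAL5, ST3GAL6, FUT2 and GALNTL6 were lower, where it was 2.3%. Nearest to that limit, ST6GALNAC6 lay inside it at 1.02, whereas GCNT1 at -0.87 and GALNT13 at 0.86 lay outside. GALNTL6 passed the filter only through its control libraries and GCNT7 passed in 2 libraries of each group, so the counts over tested enzymes describe what was measured and are no support for a change of the pathway.

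**Figure D1:**
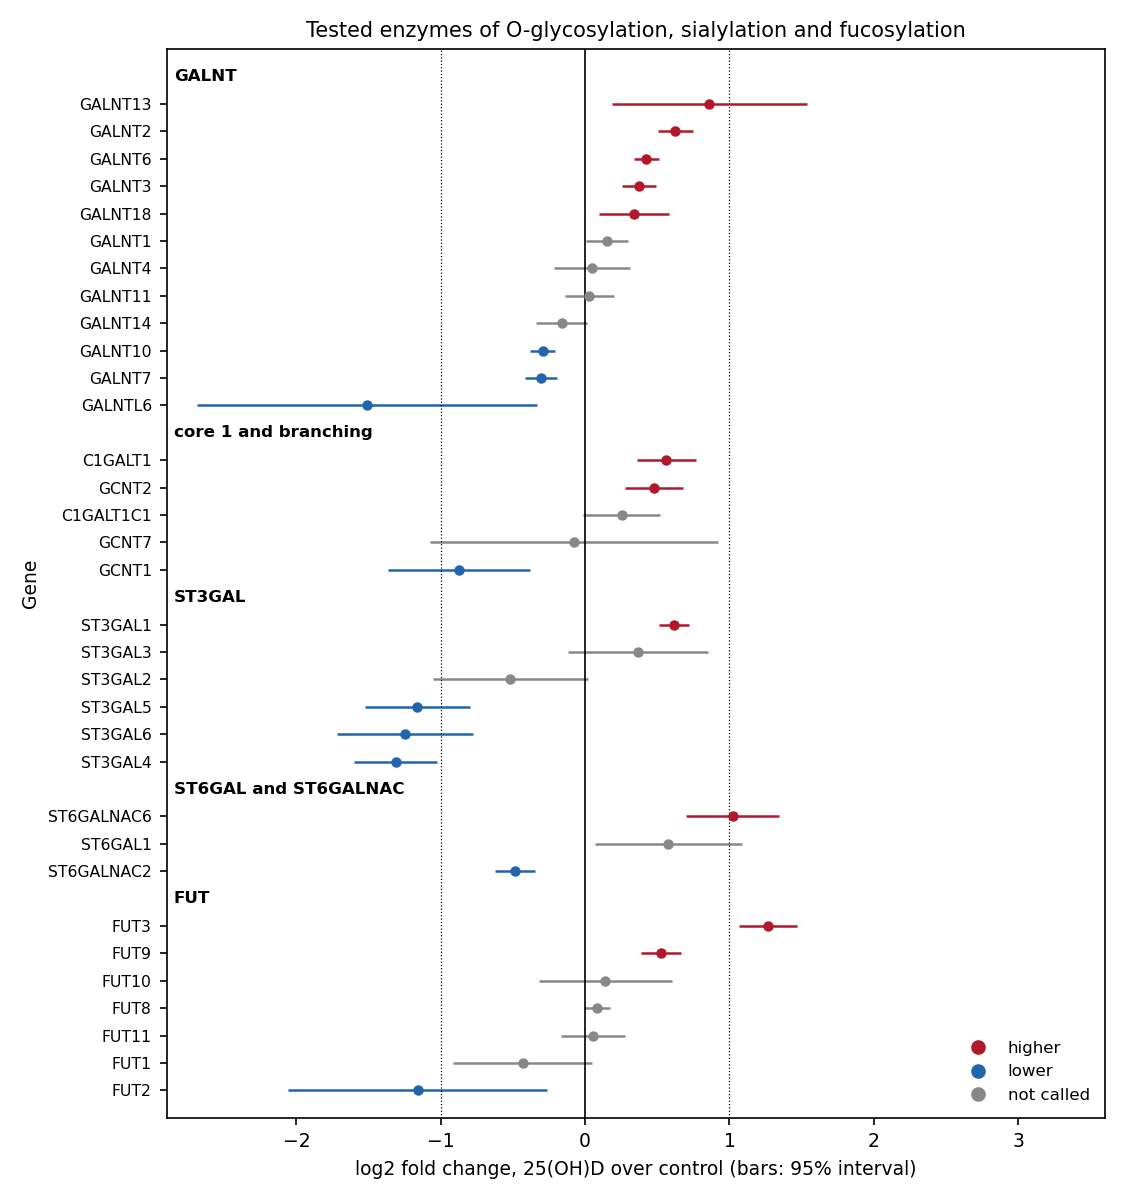
Log2 fold change of 25(OH)D over control (x axis) for the 33 tested enzymes (y axis), grouped by role, with points for the edgeR estimate, bars for the 95% interval, dotted lines at the limit of 1 and colours for the call at an adjusted p under 0.05. Each of the 5 role groups holds at least 1 enzyme that rose and at least 1 that fell, from GALNTL6 at -1.51 to FUT3 at 1.27.

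The first step of the pathway was carried by several GALNT transcripts, and their proportions differed between the groups. GALNT6 was the most abundant per length, followed in control by GALNT10, GALNT2 and GALNT3, which are all polypeptide N-acetylgalactosaminyltransferases with differing preferences for acceptor sites. GALNT6, GALNT2, GALNT3, GALNT18 and GALNT13 rose with 25(OH)D, whereas GALNT10, GALNT7 and GALNTL6 fell. GALNT1, GALNT4, GALNT11 and GALNT14 did not pass the test.

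GALNT6 (chromosome 12, 51351247 to 51392867, minus strand of GRCh38) had RPKM values, which are counts scaled to gene length and library total, of 29.9, 29.5 and 28.3 in control and 39.2, 38.4 and 36.5 in 25(OH)D. The 3 libraries with 25(OH)D all lay above the 3 control libraries. The mean rose from 29.2 ± 0.854 to 38.0 ± 1.37 RPKM (SD, n = 3 each), with a fitted log2 ratio of 0.42 ± 0.0398 (SE, edgeR adjusted p = 1.26e-06). GALNT6 shares 392 exon bases, 5.34% of its exons, with SLC4A8 on the opposite strand, which had 3502 to 4040 counts in control and 6798 to 7928 in 25(OH)D, and the strand setting of the counting is not given in the sources used here. The part of this and of the other overlapping or shared transcripts given below in the results was not tested.

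GALNT2 (chromosome 1, 230057990 to 230282124, plus strand) had 12.2, 11.5 and 11.4 RPKM in control against 16.2, 17.5 and 18.9 in 25(OH)D. Again no library of one group fell within the range of the other, and the log2 fold change was 0.63 ± 0.0554 (SE, edgeR adjusted p = 6.69e-07), the smallest p among the GALNT genes that rose. It shares 1029 exon bases, 13.3% of its exons, with the opposite-strand transcript RP5-956O18.3, which had 45 to 77 counts in control and 49 to 107 in 25(OH)D.

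GALNT10 (chromosome 5, 154190730 to 154420984, plus strand) moved the other way, from 11.7, 11.8 and 11.8 RPKM in control to 9.23, 9.29 and 9.34 in 25(OH)D. The replicates of each group lay close together, with SD of 0.0511 and 0.0549 RPKM (n = 3 each), and the log2 fold change was -0.29 ± 0.0404 (SE, edgeR adjusted p = 5.60e-05). GALNT2 and GALNT10 were thus near equal in control, where the GALNT2 to GALNT10 ratio of RPKM was 1.04, 0.981 and 0.967, and unequal in 25(OH)D, where it was 1.75, 1.88 and 2.02. This ratio is taken within a library and does not depend on the normalization between libraries. Its separation between the groups follows from the opposite changes of both genes and adds nothing to their calls.

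GALNT3 rose from 9.98 ± 0.216 to 12.5 ± 0.595 RPKM (SD, n = 3 each), with a fitted log2 ratio of 0.37 (adjusted p = 7.82e-05 from edgeR), and GALNT7 fell from 8.48 ± 0.103 to 6.64 ± 0.244 RPKM with a log2 fold change of -0.31 (adjusted p = 3.54e-04). GALNT18 was called with a log2 fold change of 0.34 (adjusted p = 0.0317) and GALNT13 with 0.86 (adjusted p = 0.0481). GALNT13 had 27, 24 and 18 counts in control and 40, 38 and 36 in 25(OH)D. GALNTL6 (chromosome 4, 171812254 to 173041559, plus strand), a distant relative of the family, had 16, 18 and 16 counts in control and 4, 10 and 2 in 25(OH)D. Its log2 fold change of -1.51 ± 0.547 (SE, edgeR adjusted p = 0.0441) had a 95% interval from -2.69 to -0.34. With 1 library left out at a time, GALNT13 lost its call whichever library it was (edgeR adjusted p up to 0.129, without control replicate 3). GALNTL6 lost it in each case but that of 25(OH)D replicate 2 (up to 0.162, without 25(OH)D replicate 3), and GALNT18 lost it without control replicate 1 or 3 or 25(OH)D replicate 1 or 2 (up to 0.0978). GALNT7 shares exon bases with opposite-strand genes, 98 with RP11-10K16.1, which had 494 to 630 counts in control and 352 to 440 in 25(OH)D, and 394 with RP11-798M19.3, which had 47 to 59 and 28 to 47.

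Summed over the 19 GALNT genes, the RPKM were 92.0, 91.7 and 88.6 in control and 103.8, 104.4 and 103.1 in 25(OH)D. GALNT6 held 32.2% ± 0.300 of this sum in control and 36.6% ± 1.17 in 25(OH)D, GALNT2 held 12.9% ± 0.315 and 16.9% ± 1.36, and GALNT10 held 12.9% ± 0.300 and 8.95% ± 0.0910 (SD, n = 3 each). GALNT14, which did not pass the test with a log2 fold change of -0.16 (95% interval -0.34 to 0.012, adjusted p = 0.146 from edgeR), held between 6.43% and 7.41% of the sum in control and between 4.90% and 5.78% in 25(OH)D. GALNT4 shares 93.2% of its exon bases with the readthrough gene POC1B-GALNT4, so its value of 1.12 RPKM in control cannot be assigned to it alone.

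**Figure D2:**
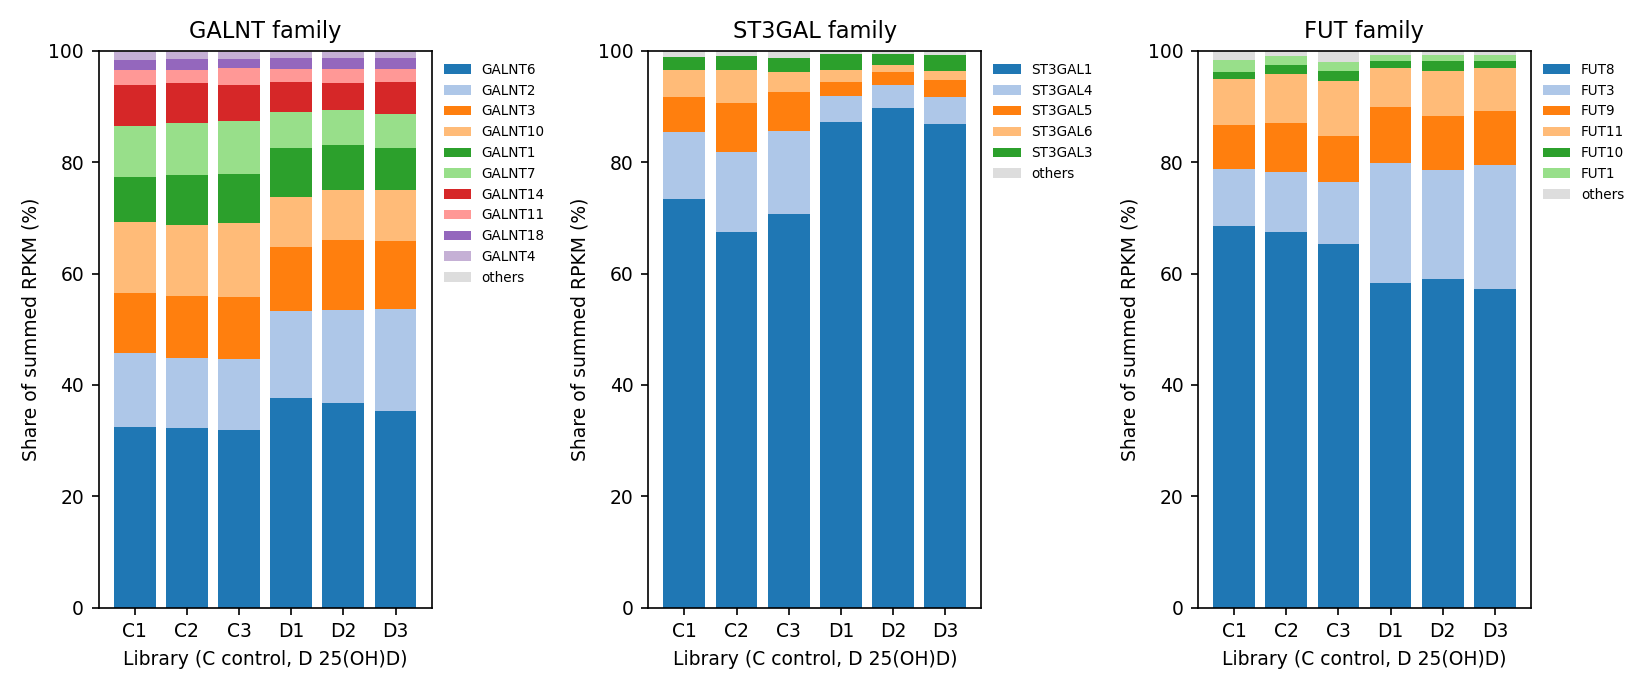
Share of the summed RPKM of the GALNT, ST3GAL and FUT families held by each gene (y axis, percent) in each library (x axis, C1 to C3 control, D1 to D3 25(OH)D), with genes under 1% on average pooled as others. In every library with 25(OH)D the shares of GALNT2, ST3GAL1 and FUT3 were above those in every control library, and the shares of GALNT10, ST3GAL4 and FUT8 were below. FUT8 itself was not called (log2 fold change 0.082), and its share is of a family sum that averaged 23.8 RPKM in control and 28.2 in 25(OH)D.

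At the second step, C1GALT1, the galactosyltransferase that forms core 1, rose while GCNT1, which adds the branch of core 2 onto core 1, fell. C1GALT1 (chromosome 7, 7156934 to 7248651, plus strand) had 0.995, 0.920 and 0.959 RPKM in control and 1.41, 1.38 and 1.32 in 25(OH)D, with no overlap between the groups. Its log2 fold change was 0.56 ± 0.0952 (SE, edgeR adjusted p = 3.43e-04). GCNT1 (chromosome 9, 76419850 to 76507416, plus strand) was expressed at a low level, with 98, 86 and 65 counts in control and 38, 50 and 36 in 25(OH)D. It fell from 0.335 ± 0.0515 to 0.177 ± 0.0196 RPKM (SD, n = 3 each), with a fitted log2 ratio of -0.87 ± 0.229 (SE, edgeR adjusted p = 0.00847). The RPKM of C1GALT1 was 2.69, 2.57 and 3.48 times that of GCNT1 in the control libraries. In the 25(OH)D libraries it was 8.59, 6.94 and 7.91 times. That these ranges were apart follows from the opposite changes of both genes and adds nothing to their calls.

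C1GALT1C1 (chromosome X, 120625793 to 120630150, minus strand), the chaperone without which C1GALT1 does not fold, was the most abundant of this group per length, with 4.68, 5.18 and 5.34 RPKM in control and 5.03, 7.05 and 5.46 in 25(OH)D. Only 25(OH)D replicate 2 stood well above the control range, and the log2 fold change of 0.25 did not pass the test (95% interval -0.013 to 0.52, adjusted p = 0.136 from edgeR). The RPKM of C1GALT1 was 0.213, 0.178 and 0.179 times that of C1GALT1C1 in control. In 25(OH)D it was 0.280, 0.196 and 0.243 times, so this ratio overlapped between the groups. GCNT2 (chromosome 6, 10492223 to 10629368, plus strand), which branches poly-N-acetyllactosamine chains to form the I antigen, rose from 1.46 ± 0.135 to 1.96 ± 0.155 RPKM (SD, n = 3 each), with a fitted log2 ratio of 0.48 (SE 0.0929, adjusted p = 0.00110). GCNT7 had 9 to 22 counts per library and a log2 fold change of -0.076 with an interval from -1.07 to 0.92, so no change was detectable at this depth. GCNT3, the enzyme of mucin-secreting epithelia, never exceeded 7 counts, GCNT4 had 4 to 10 counts, and GCNT6 had 2 counts in 1 control library and none elsewhere.

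The ST3GAL family, which transfers sialic acid to galactose, changed in both directions. ST3GAL1, the enzyme that sialylates core 1 O-glycans, rose, whereas ST3GAL4, ST3GAL5 and ST3GAL6 fell past a log2 fold change of -1. ST3GAL4 and ST3GAL6 act on the lactosamine ends from which sialyl-Lewis antigens are made, and ST3GAL5 makes the ganglioside GM3 from lactosylceramide, a lipid rather than a protein acceptor. ST3GAL2 and ST3GAL3 did not pass the test.

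ST3GAL1 (chromosome 8, 133454848 to 133571940, minus strand) had 10.3, 9.62 and 10.2 RPKM in control and 14.7, 15.7 and 14.3 in 25(OH)D. All 3 values with 25(OH)D were above all 3 of control. The log2 fold change was 0.62 ± 0.0479 (SE, edgeR adjusted p = 1.77e-07), and with 1 library left out at a time it stayed between 0.59 and 0.65.

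ST3GAL4 (chromosome 11, 126355640 to 126440344, plus strand) had 311, 340 and 351 counts in control and 128, 123 and 118 in 25(OH)D. Every control library held more than the highest 25(OH)D library. The mean fell from 1.97 ± 0.237 to 0.768 ± 0.0501 RPKM (SD, n = 3 each), with a fitted log2 ratio of -1.31 ± 0.134 (SE, 95% interval -1.60 to -1.02, edgeR adjusted p = 2.82e-06). ST3GAL6 (chromosome 3, 98732236 to 98821201, plus strand) had 179, 195 and 122 counts in control and 81, 55 and 54 in 25(OH)D, and ST3GAL5 (chromosome 2, 85839144 to 85889014, minus strand) had 197, 257 and 200 against 85, 90 and 92. In both genes the groups did not overlap. The log2 fold change was -1.25 for ST3GAL6 (SE 0.219, edgeR adjusted p = 4.63e-04) and -1.16 for ST3GAL5 (SE 0.170, edgeR adjusted p = 9.31e-05). The 95% intervals of the 3 falls, from -1.60 to -1.02 for ST3GAL4, -1.72 to -0.78 for ST3GAL6 and -1.53 to -0.80 for ST3GAL5, each covered the other estimates, and whether the falls differed in size was not tested. ST3GAL6 shares 235 exon bases with DCBLD2 on the opposite strand, which had 542 to 625 counts in control and 444 to 541 in 25(OH)D.

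ST3GAL2, which also acts on core 1, had 51 to 66 counts in control and 36 to 40 in 25(OH)D. Its libraries did not overlap, but the log2 fold change of -0.52 did not pass the test (95% interval -1.06 to 0.021, adjusted p = 0.132 from edgeR). ST3GAL3 had a log2 fold change of 0.36 (95% interval -0.12 to 0.85, adjusted p = 0.242). Summed over the family, RPKM were 14.1, 14.2 and 14.4 in control and 16.9, 17.5 and 16.4 in 25(OH)D, since ST3GAL1 outweighed the others. ST3GAL1 held 73.4%, 67.5% and 70.7% of the sum in control and 87.1%, 89.8% and 86.9% in 25(OH)D, and ST3GAL4, ST3GAL5 and ST3GAL6 together had 3.26, 4.13 and 3.67 RPKM in control and 1.59, 1.35 and 1.55 in 25(OH)D. The ratio of ST3GAL1 to ST3GAL4 in RPKM was 6.07, 4.70 and 4.71 in control and 18.4, 22.1 and 18.0 in 25(OH)D. This separation too follows from the opposite changes of both genes.

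**Figure D3:**
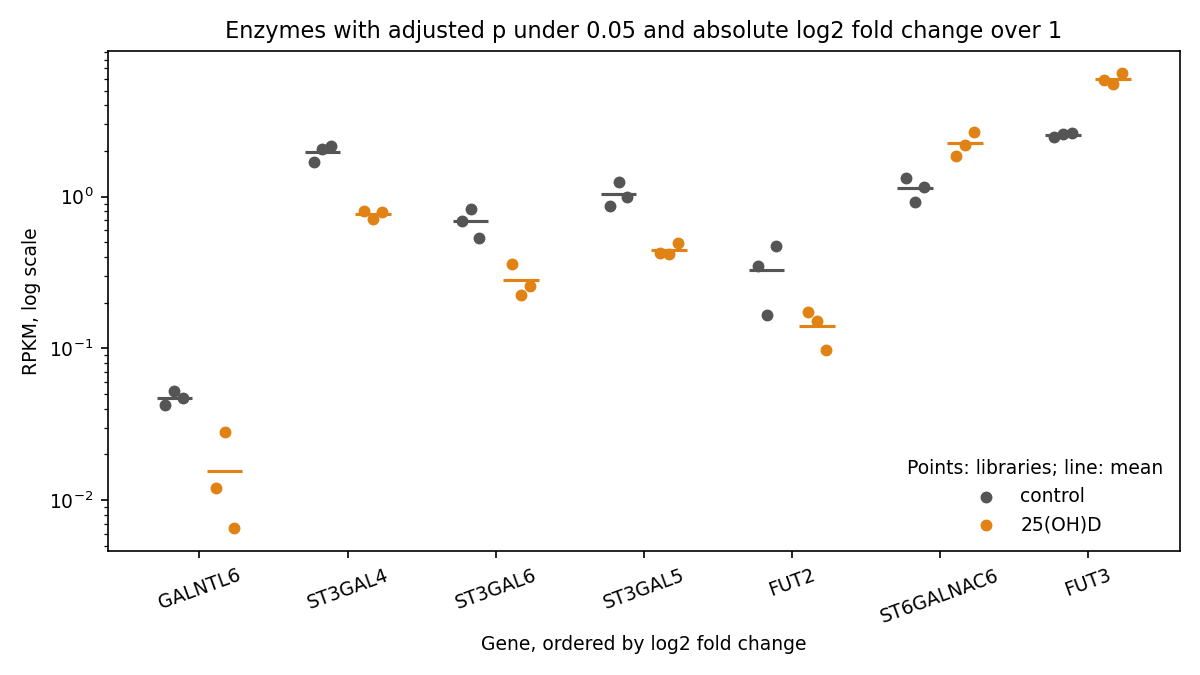
RPKM (y axis, log scale) in each library for the 7 enzymes with an adjusted p under 0.05 and an absolute log2 fold change over 1 (x axis), with points for libraries and lines for group means. The groups are apart for every gene but FUT2, whose control replicate 2 at 0.167 RPKM lies within the 25(OH)D range of 0.0978 to 0.173.

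Among the enzymes that sialylate N-acetylgalactosamine, the more abundant ST6GALNAC2 fell and ST6GALNAC6 rose. ST6GALNAC2 (chromosome 17, 76565379 to 76586956, minus strand), which acts on the sugar at the base of O-glycans, had 10.9, 10.04 and 10.2 RPKM in control and 7.41, 7.07 and 7.13 in 25(OH)D, with the groups apart. Its log2 fold change was -0.48 ± 0.0650 (SE, edgeR adjusted p = 4.35e-05). It shares 578 exon bases, 18.7% of its exons, with RP11-666A8.9 on the opposite strand, which had 357 to 480 counts in control and 214 to 257 in 25(OH)D. ST6GALNAC6 (chromosome 9, 127885321 to 127905408, minus strand), known from the synthesis of disialyl gangliosides and disialyl Lewis a, had 287, 183 and 223 counts in control and 352, 450 and 474 in 25(OH)D. The spread within the groups was wide but they did not overlap, and the log2 fold change was 1.02 ± 0.150 (SE, 95% interval 0.70 to 1.35, edgeR adjusted p = 1.00e-04). With 1 library left out at a time it stayed called, between 0.88 and 1.15, and fell under the limit of 1 without control replicate 2 or 25(OH)D replicate 3. ST6GALNAC6 shares 264 exon bases, 4.97% of its exons, with RP11-203J24.9 on the same strand. That gene had 1509 to 1648 counts in control and 1489 to 1845 in 25(OH)D. Of the 100-base stretches of ST6GALNAC6 transcripts, 43.8% also occur in the GENCODE gene AL157935.2, so the counts of ST6GALNAC6 cannot be assigned to it alone. For ST6GALNAC2 this share was 28.2%, with AC015802.6. ST6GALNAC6 held 9.74% ± 1.17 of the summed RPKM of the 4 ST6GALNAC genes in control and 23.5% ± 3.65 in 25(OH)D (SD, n = 3 each).

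ST6GALNAC1, which makes the sialyl-Tn antigen, had 2 to 11 counts per library and ST6GALNAC4 at most 2, and neither was tested. ST6GAL1, which sialylates N-glycans, had 68, 42 and 60 counts in control and 77, 99 and 57 in 25(OH)D. Scaled to library size its groups did not overlap, and its log2 fold change of 0.58 did not pass the test (95% interval 0.065 to 1.09, adjusted p = 0.0781 from edgeR). Without 25(OH)D replicate 3 it was 0.72, with an adjusted p of 0.0423.

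Of the fucosyltransferases, FUT3 rose most and FUT9 rose, FUT2 fell, and FUT1, FUT8, FUT10 and FUT11 did not pass the test. FUT3, the Lewis enzyme, completes the Lewis a, Lewis b and sialyl-Lewis a antigens. It lies with FUT5 and FUT6 in a cluster on chromosome 19, and these neighbours are so alike that their reads could be confused, so 60 bases of the coding sequences are shown from the part where the 3 genes differ most. Capitals mark the 20 positions at which they are not all the same.
FUT3 (chr19:5844460-5844519, minus strand): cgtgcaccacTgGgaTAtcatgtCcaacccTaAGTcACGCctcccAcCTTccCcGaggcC
FUT5 (chr19:5867307-5867366, minus strand): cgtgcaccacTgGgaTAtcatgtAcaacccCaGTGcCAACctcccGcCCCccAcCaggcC
FUT6 (chr19:5832191-5832250, minus strand): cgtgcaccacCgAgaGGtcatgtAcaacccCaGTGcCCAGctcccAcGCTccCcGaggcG
In this stretch FUT5 differs from FUT3 at 13 bases and FUT6 at 15. Over the aligned coding sequence of GENCODE 29 on GRCh38, FUT3 was 93.9% identical to FUT5 and 90.7% to FUT6. Even so, only 7.59% of the 100-base stretches of FUT3 transcripts occurred in any other gene, so most stretches of this length belong to FUT3 alone.

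FUT3 (chromosome 19, 5842888 to 5851474, minus strand) had 313, 297 and 297 counts in control and 655, 663 and 670 in 25(OH)D, and its p was the smallest of the 33 tested enzymes. The replicates of each group lay close together and the groups were far apart. The mean rose from 2.55 ± 0.0811 to 5.95 ± 0.493 RPKM (SD, n = 3 each), 2.41-fold by the fitted log2 fold change of 1.27 ± 0.0919 (SE, 95% interval 1.07 to 1.46, edgeR adjusted p = 8.45e-08). AC024592.9, which shares 126 exon bases with FUT3 on the opposite strand, had 37 to 53 counts in control and 83 to 106 in 25(OH)D. FUT6 had 1, 0 and 0 counts in control and 2, 12 and 6 in 25(OH)D, and FUT5 had 2 counts in 1 control library and none in the others. Both were below the filter and were not tested. FUT5 shares 82.5% of its exon bases on the same strand with AC024592.12, which had 142 to 243 counts, and how such reads were assigned is not given in the sources used here, so the low count of FUT5 does not show that it was absent.

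FUT9 (chromosome 6, 96015984 to 96215612, plus strand), which makes Lewis x, had 1.90, 2.11 and 1.95 RPKM in control and 2.78, 2.68 and 2.86 in 25(OH)D. The groups were apart, with a log2 fold change of 0.52 ± 0.0643 (SE, edgeR adjusted p = 1.83e-05). FUT4 and FUT7, which take part in the synthesis of Lewis x and sialyl-Lewis x as FUT3, FUT5 and FUT6 also can, had at most 4 and at most 6 counts in a library and were not tested. FUT7 shares 27.6% of its exon bases on the same strand with RP11-229P13.27, which had 333 to 447 counts. As for FUT5, the low count of FUT7 does not show that it was absent. FUT1 and FUT2 make the H antigen, the precursor of Lewis b and of the ABO groups. FUT2 (chromosome 19, 48695971 to 48705950, plus strand) had 48, 21 and 58 counts in control and 21, 20 and 11 in 25(OH)D, and control replicate 2 was as low as the libraries with 25(OH)D. Its log2 fold change of -1.16 ± 0.418 (SE, 95% interval -2.06 to -0.26, edgeR adjusted p = 0.0448) was no longer called with any 1 library but control replicate 2 left out, and was -0.81 with an edgeR adjusted p of 0.218 without control replicate 3. FUT1 had 60 to 87 counts in control and 44 to 50 in 25(OH)D, with a log2 fold change of -0.43 that did not pass the test (95% interval -0.91 to 0.050, adjusted p = 0.161).

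FUT8 (chromosome 14, 65410592 to 65744121, plus strand), which adds the core fucose of N-glycans, was the most abundant fucosyltransferase per length. It had 16.4, 16.1 and 15.4 RPKM in control and 16.03, 16.5 and 16.7 in 25(OH)D. The groups overlapped in RPKM but not after scaling by the TMM factors. The log2 fold change was 0.082, with a 95% interval from -0.011 to 0.17 and an adjusted p of 0.170 from edgeR. Without FUT8, the other 10 FUT genes summed to 7.55, 7.75 and 8.18 RPKM in control and 11.4, 11.5 and 12.5 in 25(OH)D. FUT3 held 32.6% ± 0.576 of that sum in control and 50.4% ± 2.16 in 25(OH)D (SD, n = 3 each). FUT10 and FUT11, which are now assigned to protein O-fucosylation, had log2 fold changes of 0.14 (95% interval -0.32 to 0.60) and 0.056 (-0.17 to 0.28).

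FUT3 had the largest rise, and ST3GAL4, ST3GAL5 and ST3GAL6 fell together past the fold limit, so the 250 bases before a start site are shown for these 4 genes. The sequences are RefSeq's on GRCh38.p14, for the start nearest to the gene start in the deposited table, and read toward the gene. That start lay 25 bases from the table's gene start for FUT3, 20 for ST3GAL5 and 26 for ST3GAL6. For ST3GAL4 it lay 372 bases away, so the whole ST3GAL4 stretch falls inside the gene as counted, past its start at 126355640. Capitals mark each occurrence of a hexamer of the kind that the vitamin D receptor binds, on either strand. The hexamers searched were AGGTCA as the first form, then AGTTCA as a variant of it, with GGGTCA as another variant and finally GGTTCA.
FUT3 (chr19:5851450-5851699, minus strand): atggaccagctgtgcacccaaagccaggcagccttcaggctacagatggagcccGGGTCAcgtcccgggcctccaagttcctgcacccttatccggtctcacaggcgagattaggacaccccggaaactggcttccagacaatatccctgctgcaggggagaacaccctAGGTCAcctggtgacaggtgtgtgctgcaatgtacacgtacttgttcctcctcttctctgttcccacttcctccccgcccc
ST3GAL4 (chr11:126355762-126356011, plus strand): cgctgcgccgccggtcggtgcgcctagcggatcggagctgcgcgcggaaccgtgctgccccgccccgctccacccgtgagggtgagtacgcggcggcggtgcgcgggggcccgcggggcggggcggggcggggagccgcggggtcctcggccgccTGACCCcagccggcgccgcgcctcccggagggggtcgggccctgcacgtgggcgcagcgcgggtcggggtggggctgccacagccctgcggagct
ST3GAL5 (chr2:85889035-85889284, minus strand): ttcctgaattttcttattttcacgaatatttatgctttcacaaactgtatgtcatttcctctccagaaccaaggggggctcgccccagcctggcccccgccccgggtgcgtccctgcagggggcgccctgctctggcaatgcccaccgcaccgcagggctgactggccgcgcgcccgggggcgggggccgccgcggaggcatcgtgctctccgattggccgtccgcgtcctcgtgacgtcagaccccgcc
ST3GAL6 (chr3:98732012-98732261, plus strand): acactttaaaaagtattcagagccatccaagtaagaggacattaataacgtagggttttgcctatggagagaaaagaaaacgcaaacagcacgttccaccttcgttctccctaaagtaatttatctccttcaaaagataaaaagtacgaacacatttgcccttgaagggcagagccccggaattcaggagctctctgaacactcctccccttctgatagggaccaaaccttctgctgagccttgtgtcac
The stretch of FUT3 holds 2 of these hexamers and that of ST3GAL4 holds 1, on the opposite strand, while none was found in those of ST3GAL5 and ST3GAL6. RefSeq windows of 300 bases, reaching 50 bases past the start, were found for 35 of the 49 enzymes, 60 windows in all. At least 1 of the 4 hexamers on either strand occurred in 35.0% of these windows and in 38.6% of all 35116 windows. A pair of these hexamers in the same direction with 3 bases between them, the arrangement of the classical vitamin D response element, occurred in none of the 60 windows and in 26 (0.074%) of all windows, and a match or its absence says nothing of binding in these cells.

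Beyond these families, genes that supply the activated sugars were considered, with lists written from general knowledge of the pathway. The list for the synthesis and Golgi transport of the sugar donors held 26 symbols for 24 genes, since TSTA3 and FUK were also entered by their newer symbols GFUS and FCSK. The 24 genes were listed under 1 symbol each and 22 were tested, of which 11 rose and 3 fell, 63.6% against the 33.8% of all genes that were called. Their median log2 fold change was 0.15. SLC35A3 (chromosome 1), a Golgi transporter of UDP-N-acetylglucosamine, had the smallest p and rose from 2.41 ± 0.0741 to 5.50 ± 0.0823 RPKM (SD, n = 3 each), with a fitted log2 ratio of 1.24 ± 0.0502 (SE, edgeR adjusted p = 1.43e-10). UAP1L1, a relative of the enzyme that makes UDP-N-acetylhexosamines, had the smallest p of those that fell, from 4.03 ± 0.0358 to 2.39 ± 0.0416 RPKM, a log2 fold change of -0.71 (adjusted p = 2.60e-06 from edgeR).

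A pair of donor genes that bear on sialic acid and fucose are given as well, chosen after their values were seen. SLC35C1, the Golgi transporter of GDP-fucose, the donor of every FUT enzyme, had 240, 194 and 228 counts in control and 678, 788 and 612 in 25(OH)D. The groups were far apart, with a log2 fold change of 1.78 ± 0.0955 (SE, edgeR adjusted p = 3.21e-09). CMAS, which activates sialic acid to CMP-sialic acid, the donor of every sialyltransferase, had 1630, 1369 and 1505 counts in control and 2206, 2250 and 1765 in 25(OH)D, with a log2 fold change of 0.59 ± 0.0665 (SE, edgeR adjusted p = 7.32e-06). SLC35A1, the Golgi transporter of CMP-sialic acid, had a log2 fold change of -0.27 that did not pass the test (adjusted p = 0.132). The genes of the list for GDP-fucose synthesis went both ways. GMDS rose with a log2 fold change of 0.30 (edgeR adjusted p = 0.00110), and FPGT fell with -0.51 (edgeR adjusted p = 0.0174). TSTA3 at 0.13 and FUK at -0.026 did not pass the test.

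**Figure D4:**
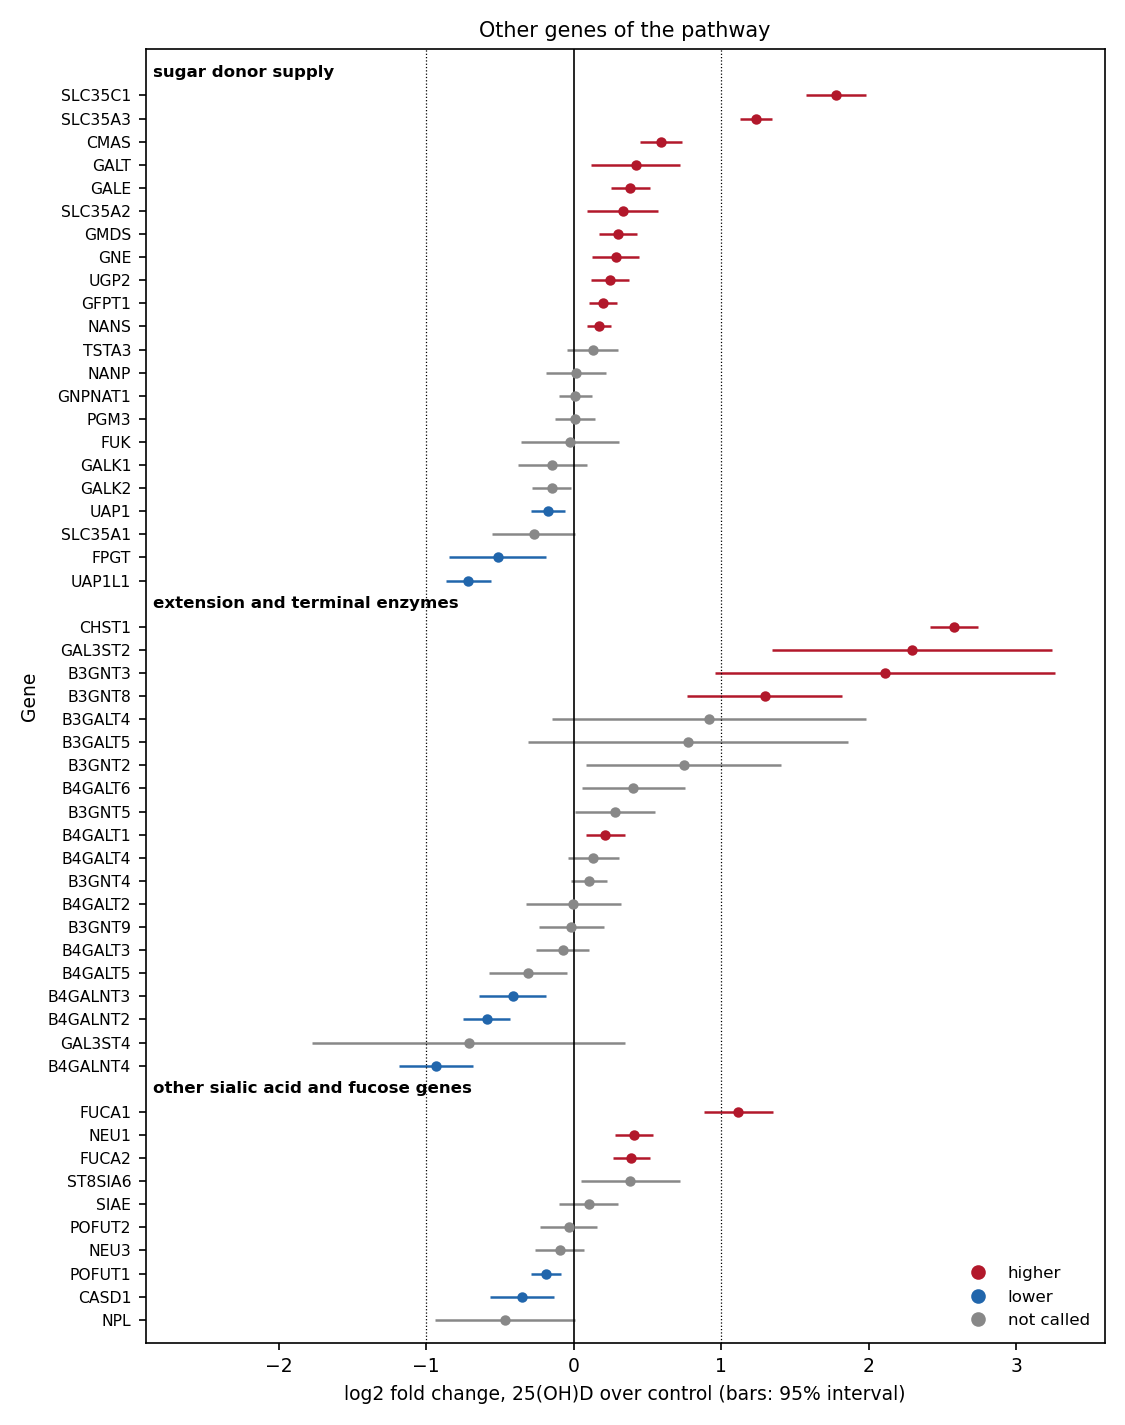
Log2 fold change of 25(OH)D over control (x axis) for the tested genes (y axis) of sugar donor supply, of chain extension and terminal modification, and of other sialic acid and fucose metabolism, with points for the edgeR estimate, bars for the 95% interval and colours for the call. CHST1 at 2.58 and SLC35C1 at 1.78 stand furthest to the right among genes with narrow intervals, and B4GALNT4 at -0.93 is the lowest of the genes that fell.

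Of 33 enzymes that lengthen, sulfate or cap glycan chains, 28 were listed and 20 tested, of which 5 rose and 3 fell, 40% against the 33.8% of all genes. Of the 20, 5 exceeded the cutoff of the filter in all libraries of 1 group only (B3GNT3, B3GALT4, B3GALT5 and GAL3ST2 in 25(OH)D, GAL3ST4 in control). CHST1, a sulfotransferase that acts on galactose of lactosamine chains, had 354, 289 and 285 counts in control and 1570, 1854 and 1620 in 25(OH)D. This was the largest rise of the list, from 2.32 ± 0.142 to 13.4 ± 0.748 RPKM (SD, n = 3 each), with a fitted log2 ratio of 2.58 ± 0.0753 (SE, edgeR adjusted p = 3.85e-12). The other 3 that rose past the fold limit had few reads in control. B3GNT8 had 27 to 45 counts in control and 77 to 85 in 25(OH)D, GAL3ST2 had 3 to 12 against 37 to 45, and B3GNT3, an enzyme that extends core 1, had 3 to 7 against 16 to 24 and passed the filter only through 25(OH)D. B4GALNT4 had the smallest p of those that fell, with a log2 fold change of -0.93 ± 0.118 (SE, edgeR adjusted p = 2.41e-05). Of 17 further genes of sialic acid and fucose metabolism, 14 were listed and 10 tested, of which 3 rose and 2 fell, 50% against the 33.8% of all genes. FUCA1, the lysosomal fucosidase, rose from 3.62 ± 0.335 to 7.61 ± 0.860 RPKM (SD, n = 3 each), with a fitted log2 ratio of 1.12 (adjusted p = 1.68e-06 from edgeR), and POFUT1, which fucosylates the epidermal growth factor-like repeats of Notch receptors, fell with a log2 fold change of -0.19 (adjusted p = 0.00679).

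The remaining 16 enzymes, those under the filter, had at most 14 counts in any library. They were GALNT5, GALNT8, GALNT9, GALNT12, GALNT15, GALNT16 and GALNTL5, GCNT3, GCNT4 and GCNT6, ST6GALNAC1 and ST6GALNAC4, and FUT4, FUT5, FUT6 and FUT7. Their highest value was that of GALNT12 in control replicate 2, and no fold was computed for them. At this depth 3 counts, the value set as the floor for detection, correspond to between 0.0733 and 0.0902 CPM.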

How the data were processed

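Cells of 1 line, MDA-MB-453, were cultured with 25(OH)D or solvent, with 3 libraries of stranded, paired-end mRNA per group. The authors deposited raw counts per gene and RPKM values. The submitters' processing notes name Trimmomatic 0.36, featureCounts, Subread 1.5.1, edgeR 3.12.1 and GRCh38, and the aligner and the annotation release are not given in the sources used here. Each deposited RPKM equalled the count divided by gene length and library total (largest relative difference 2.23e-13). Groups and replicate numbers came from the labels. No replicates were duplicates (chi-square per gene between 4.01 and 12.1).

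Counts were tested in R 4.3.3 with edgeR 4.0.16 (TMM, low-count filter at its default minimum count of 10, quasi-likelihood test without covariates, Benjamini-Hochberg adjustment over 18183 genes). The filter corresponds to 0.271 CPM in at least 3 libraries. Standard errors were the coefficient divided by the root of the F statistic. Overlap between groups was judged on CPM scaled by the TMM factors. DESeq2 1.42.0 and limma 3.58.1 served as alternatives, and figures were drawn with matplotlib 3.10.9. The fit was tested on simulated data. Shared sequence was counted in GENCODE 29 transcripts, and coding sequences were aligned with biopython 1.88. Genes were named with values if called with an absolute log2 fold change over 1, if they had the smallest p in a direction or the highest RPKM in their group, or if they lay just inside or outside the limit. Other members were added to account for all of them. The members and lists were chosen with earlier results of these data known, and no set test was run. The fold limit of 1 follows the study, and promoters and coding stretches to print were chosen after the values were seen, as was the search for single hexamers.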

Additional observations from a re-analysis of the deposited data

How the results depend on the processing

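With 13 alternatives (another normalization, no low-count filter, another test, limma on log2(RPKM + 1) or log2(RPKM + 0.1), the replicate number as a block and each library left out), 16 of the 20 called enzymes kept their call and direction in all of them. GALNT13 lost its call in 11 of the 13, GALNTL6 in 10, FUT2 in 9 and GALNT18 in 9. Each of these lost it in the DESeq2 Wald test (adjusted p = 0.123, 0.137, 0.0708 and 0.0811, in that order). No called enzyme changed direction. The cause was not tested. Enzymes called higher past the fold limit, 2 as reported, were 1 with library totals alone, 0 on log2(RPKM + 1), 1 on log2(RPKM + 0.1) and 3 with no low-count filter, where FUT6 was called as well. Those called lower past it, 5 as reported, were 3 with DESeq2, 4 with no low-count filter, 0 on log2(RPKM + 1) and 3 on log2(RPKM + 0.1), where the added constant shrinks the change of genes with low values. With each library left out, 1 to 2 were higher and 3 to 4 lower past the limit, and without that limit 9 to 12 were higher and 7 to 8 lower. Calls over all genes without that limit also became fewer with each library left out. They went from 3138 to between 2742 and 3031 higher, and from 3004 to between 2349 and 2666 lower. In every such omission FUT2, GALNTL6 or both were no longer called. GALNT1 (log2 fold change 0.21, without 25(OH)D replicate 3) and GALNT14 (-0.23, without control replicate 3) each gained a call when that library was left out. POFUT1 lost it without 25(OH)D replicate 2 (adjusted p = 0.0564).

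No pairing by replicate number was seen, as deviations of same-numbered libraries correlated at -0.072, -0.012 and -0.046. These values cannot show how the cultures were set up, and the labels do not give it. With the replicate block, 3 enzymes in place of 5 were lower past the limit, because FUT2 (log2 fold change -1.08, adjusted p = 0.0858 from edgeR) and GALNTL6 (-1.60, adjusted p = 0.0577) were no longer called.

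Directions reversed only for enzymes near 0 that were never called. GALNT11 was -0.013 with library totals alone, -0.0082 on log2(RPKM + 1), -0.010 on log2(RPKM + 0.1) and ranged from -0.031 to 0.11 with each library left out, lowest without control replicate 2. FUT10 ranged from -0.030 (without 25(OH)D replicate 2) to 0.26 in this way, GALNT4 was -0.0020 without control replicate 3, and GCNT7 ranged from -0.38 to 0.17, above 0 without control replicate 2 (0.17), control replicate 3 (0.049) or 25(OH)D replicate 3 (0.15). The median log2 fold change of all genes moved from -0.011 to at most -0.055. The intervals of GCNT7, GALNTL6 and FUT2, with at most 58 counts in a library, were wide.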
